A study of Mus musculus with 11 samples.

Results

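Interferon-stimulated genes are the antiviral and immune genes that cells switch on when an interferon binds its receptor. A list of 38 mouse genes of this kind was matched by symbol to the 51912 genes of the count table, and all 38 were found. Of these, 37 passed the filter on low counts, as did 15703 genes in all, and Mx2 did not. The members were followed across 11 RNA-seq samples of lineage-negative mouse bone marrow, to see how their expression moved with the order in which 2 leukaemia mutations were introduced and where CSF3R-first lay relative to the other groups.

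The marrow came from C57BL/6 mice, with donors aged 6 to 12 weeks per the study's methods, and every sample carried 2 retroviral vectors. The MIG vector, marked by GFP, was always on, while the idsRed vector came on only after Cre recombination, which 4-hydroxytamoxifen triggered. The labels give only the strain, and the study's text pairs the inducible vector with cells of Rosa26 ERT2-Cre mice, whose Cre is activated by tamoxifen, so this allele would be shared by all 3 groups. CSF3R-only cells (n = 4) carried CSF3R T618I in MIG and an empty idsRed vector. CSF3R-first cells (n = 3) carried CSF3R T618I in MIG and CEBPA V314VW in idsRed, and CEBPA-first cells (n = 4) carried CEBPA V314VW in MIG and CSF3R T618I in idsRed. CSF3R T618I activates the receptor for granulocyte colony-stimulating factor, and CEBPA V314VW alters the C-terminal part of a transcription factor that drives granulocyte differentiation. The labels describe GFP/RFP-positive cells sorted without mature lineage antigens and kept for 48 h in 4-hydroxytamoxifen, so all 3 groups received the same drug. None of these groups carried CEBPA V314VW alone or empty vectors alone, and both oncogenes were overexpressed from retroviruses. The labels do not say whether the samples came from separate animals or cultures, so the p values measure only the spread between these samples.

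Total counts ran from 47905747 to 72268346 per sample. A count of 0 allows at most 3 counts, a limit that covers counting error only. The neutrophil gene Ly6g, whose product is a lineage antigen, was still detected, at 45.8 ± 3.40 (CSF3R-only), 17.3 ± 6.78 (CSF3R-first) and 3.65 ± 0.890 CPM (CEBPA-first), as were the progenitor markers Kit, at 27.6 ± 3.33 (CSF3R-only), 28.7 ± 4.69 (CSF3R-first) and 34.8 ± 4.81 CPM (CEBPA-first), and Cd34, at 88.8 ± 11.4 (CSF3R-only), 44.1 ± 15.04 (CSF3R-first) and 17.9 ± 1.49 CPM (CEBPA-first). CPM here is the count scaled to the TMM-normalized library size, and each ± is an SD over the samples of a group.

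Type I interferons act through the receptor chains IFNAR1 and IFNAR2 and the kinases JAK1 and TYK2, which phosphorylate STAT proteins, STAT2 among them. With IRF9 these form a complex that binds the interferon-stimulated response element (ISRE) in the promoters of target genes. Interferon gamma acts through IFNGR1 and IFNGR2, JAK1 and JAK2, and a STAT dimer that binds the gamma-activated site (GAS). In the bone marrow, these programmes are also known for a basal level without infection and for their effects on blood stem cells and myeloid cells.

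The promoters below belong to the members with the largest rise and the largest fall of those with a promoter in the RefSeq table (GRCm38.p6, 250 bases before to 50 after a start site), and they are printed because most of them hold the ISRE letters, whichever way the gene moved. Capitals mark matches to GAAANNGAAA, the core letters of the ISRE, on either strand. On the opposite strand these letters read as the reverse complement, and overlapping matches run together. Gbp3 has 2 start sites in the table and rose in both comparisons with CSF3R-only. Of the genes in the table, Isg15 fell most in CEBPA-first and Ifit1 in CSF3R-first.
Gbp3, first start site, chr3:142559794-142560093, plus strand: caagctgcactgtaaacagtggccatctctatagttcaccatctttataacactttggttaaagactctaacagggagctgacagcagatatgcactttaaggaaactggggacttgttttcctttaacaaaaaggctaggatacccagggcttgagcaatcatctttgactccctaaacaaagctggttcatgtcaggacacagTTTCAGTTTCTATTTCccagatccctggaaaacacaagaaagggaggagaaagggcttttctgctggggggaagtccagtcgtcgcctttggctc
Gbp3, second start site, chr3:142560106-142560405, plus strand: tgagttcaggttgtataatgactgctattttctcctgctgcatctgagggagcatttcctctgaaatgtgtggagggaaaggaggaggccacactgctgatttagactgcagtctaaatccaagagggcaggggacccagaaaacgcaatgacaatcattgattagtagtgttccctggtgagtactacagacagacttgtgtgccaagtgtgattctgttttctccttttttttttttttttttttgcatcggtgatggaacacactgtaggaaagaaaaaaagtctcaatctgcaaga
Isg15, chr4:156200769-156201068, minus strand: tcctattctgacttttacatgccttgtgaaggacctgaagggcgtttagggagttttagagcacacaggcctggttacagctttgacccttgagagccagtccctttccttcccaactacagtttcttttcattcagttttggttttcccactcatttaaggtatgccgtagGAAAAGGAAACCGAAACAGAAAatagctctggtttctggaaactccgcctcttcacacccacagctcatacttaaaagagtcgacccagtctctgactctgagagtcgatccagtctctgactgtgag
Ifit1, chr19:34640639-34640938, plus strand: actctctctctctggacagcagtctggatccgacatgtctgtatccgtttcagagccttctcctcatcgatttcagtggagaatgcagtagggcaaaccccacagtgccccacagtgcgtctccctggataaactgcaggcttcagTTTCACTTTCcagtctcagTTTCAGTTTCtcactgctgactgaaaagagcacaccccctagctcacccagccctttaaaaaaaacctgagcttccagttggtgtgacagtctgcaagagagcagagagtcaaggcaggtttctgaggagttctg
The Isg15 promoter held 3 overlapping matches, from position -78 to -57 relative to the start site. The Ifit1 promoter held 2 matches on the opposite strand, from -104 to -95 and from -85 to -76. The first Gbp3 promoter held 2 overlapping matches on the opposite strand, from -45 to -30, and its second promoter held 0. Of the 29 members in the table, 17 had a match in at least 1 promoter (58.6%), where 3.99% of the 27025 gene symbols of the table did. The GAS letters TTCNNNGAA occurred in 7 of 29 members (24.1%) and in 9.55% of all symbols. Cmpk2, Dtx3l, Ifi35, Ifi44, Ifit2, Irf7, Irf9, Isg20, Oasl1, Oasl2, Samd9l and Xaf1 were in the table without ISRE letters in these windows. Parp14, Usp18, Mx2, Parp9, Zbp1, Rtp4, Mx1, Dhx58 and Oas2 were not matched. Against CSF3R-only, members with the ISRE letters fell in CEBPA-first in 11 of 17 cases and those without in 9 of 12. Their median log2 fold changes were -0.62 and -0.73, and 36.6% of all tested genes fell. In CSF3R-first, 11 of 17 and 7 of 12 fell, with medians of -0.63 and -0.60, where 21.1% of all tested genes fell. Of the members that rose in CEBPA-first, Gbp3 and Bst2 hold the ISRE letters as well, while Ifit2 does not. Matches of letters describe the sequence and not binding, and a window without a match says only that these letters are not in it.

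Most members were lower in CEBPA-first and in CSF3R-first than in CSF3R-only. Both of those groups carried CEBPA V314VW. In CEBPA-first, CSF3R T618I was also in the inducible vector, while in CSF3R-only it was always on. In that comparison these differences cannot be told apart. Against CSF3R-only, 27 of 37 members were lower in CEBPA-first at an adjusted p under 0.05, where 36.6% of all tested genes were, and 3 were higher, where 35.4% of all genes were. With a fold change of at least 2 as well (1 on the log2 scale), 14 members were lower and 1 was higher, against 19.0% and 8.07% of all genes. In CSF3R-first against CSF3R-only, 26 members were lower and 1 was higher, against 21.1% and 21.6% of all genes. Of these, 8 and 0 passed the fold as well, against 4.53% and 2.13%. The median log2 fold change of the members was -0.76 in CEBPA-first and -0.64 in CSF3R-first, where the medians of all tested genes were -0.0045 and -0.022. Both comparisons share the CSF3R-only samples.

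**Figure D1:**
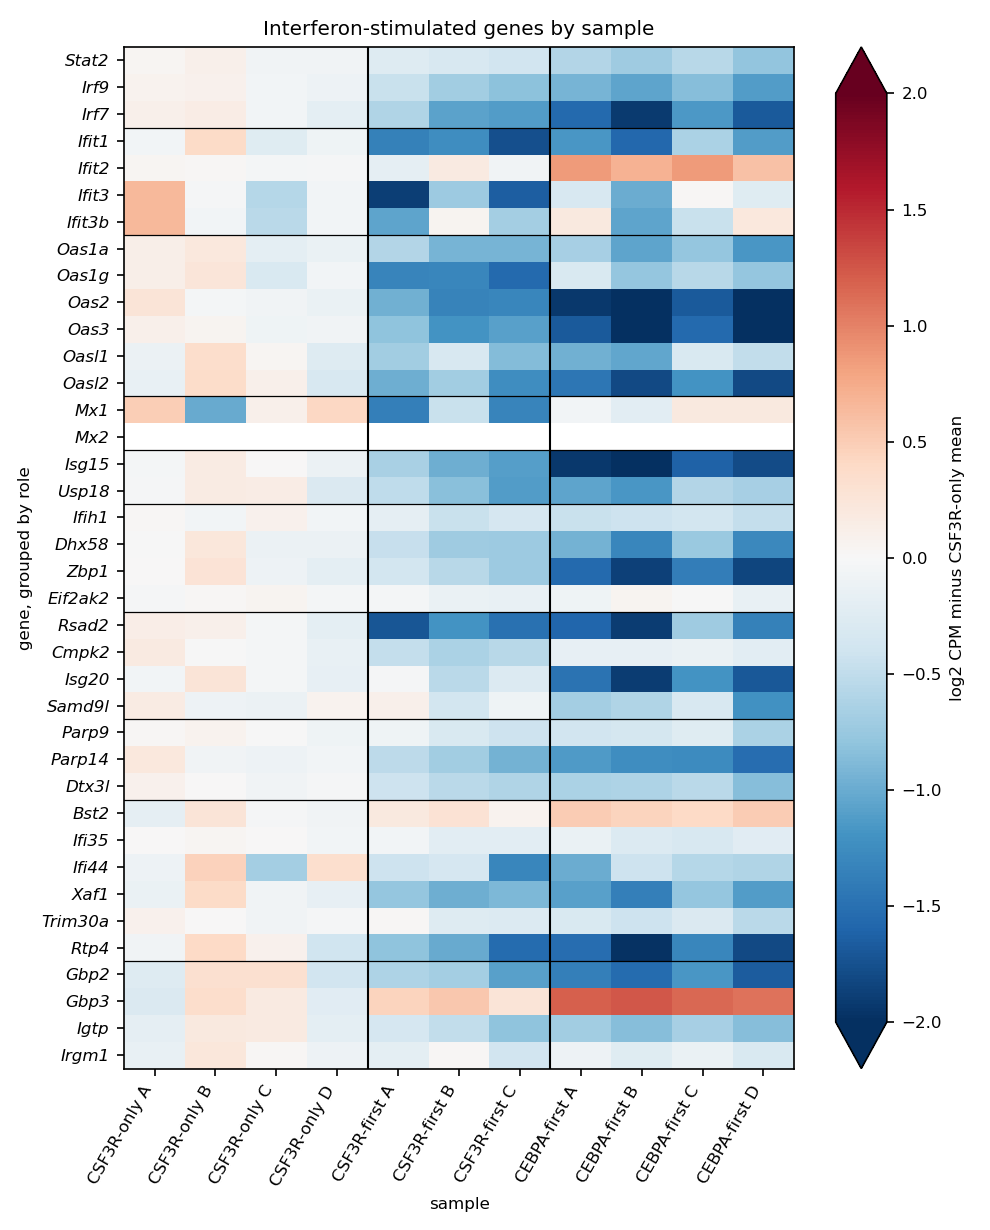
Colour shows log2 CPM (prior count 2) of each tested member in each of the 11 samples minus its CSF3R-only mean. Values are cut at 2 in either direction, and genes are grouped by role. Mx2 was not tested, so its row holds no value and is blank. Most rows are blue in the CSF3R-first and CEBPA-first columns, while Ifit2, Bst2 and Gbp3 are red in CEBPA-first.

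Between the mutation orders the members split. In CEBPA-first against CSF3R-first, 15 members were lower and 7 were higher, against 24.3% and 24.0% of all genes, and 15 passed in neither direction. Of these, 2 lower members (Zbp1 and Isg20) and 2 higher members (Ifit3 and Mx1) passed the fold, against 10.3% and 2.57% of all genes. Only 2 members in all did with a replicate block, without CEBPA-first replicate D or without CSF3R-first replicate A. The median log2 fold change was -0.13 over the members and 0.0005 over all genes, and that of the members was -0.08 without CSF3R-first replicate A and -0.20 without CSF3R-first replicate C. The SD of the member median between samples of a group was 0.17, so the size of this value is below the spread between samples. Sample by sample, the median of the 37 members relative to the CSF3R-only means was 0.02, 0.15, -0.04 and -0.10 in CSF3R-only A to D, -0.48, -0.56 and -0.83 in CSF3R-first A to C, and -0.70, -1.03, -0.57 and -0.85 in CEBPA-first A to D on the log2 scale. All 7 samples with CEBPA V314VW thus lay below the 4 CSF3R-only samples, and the ranges of CSF3R-first and CEBPA-first overlapped.

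**Figure D2:**
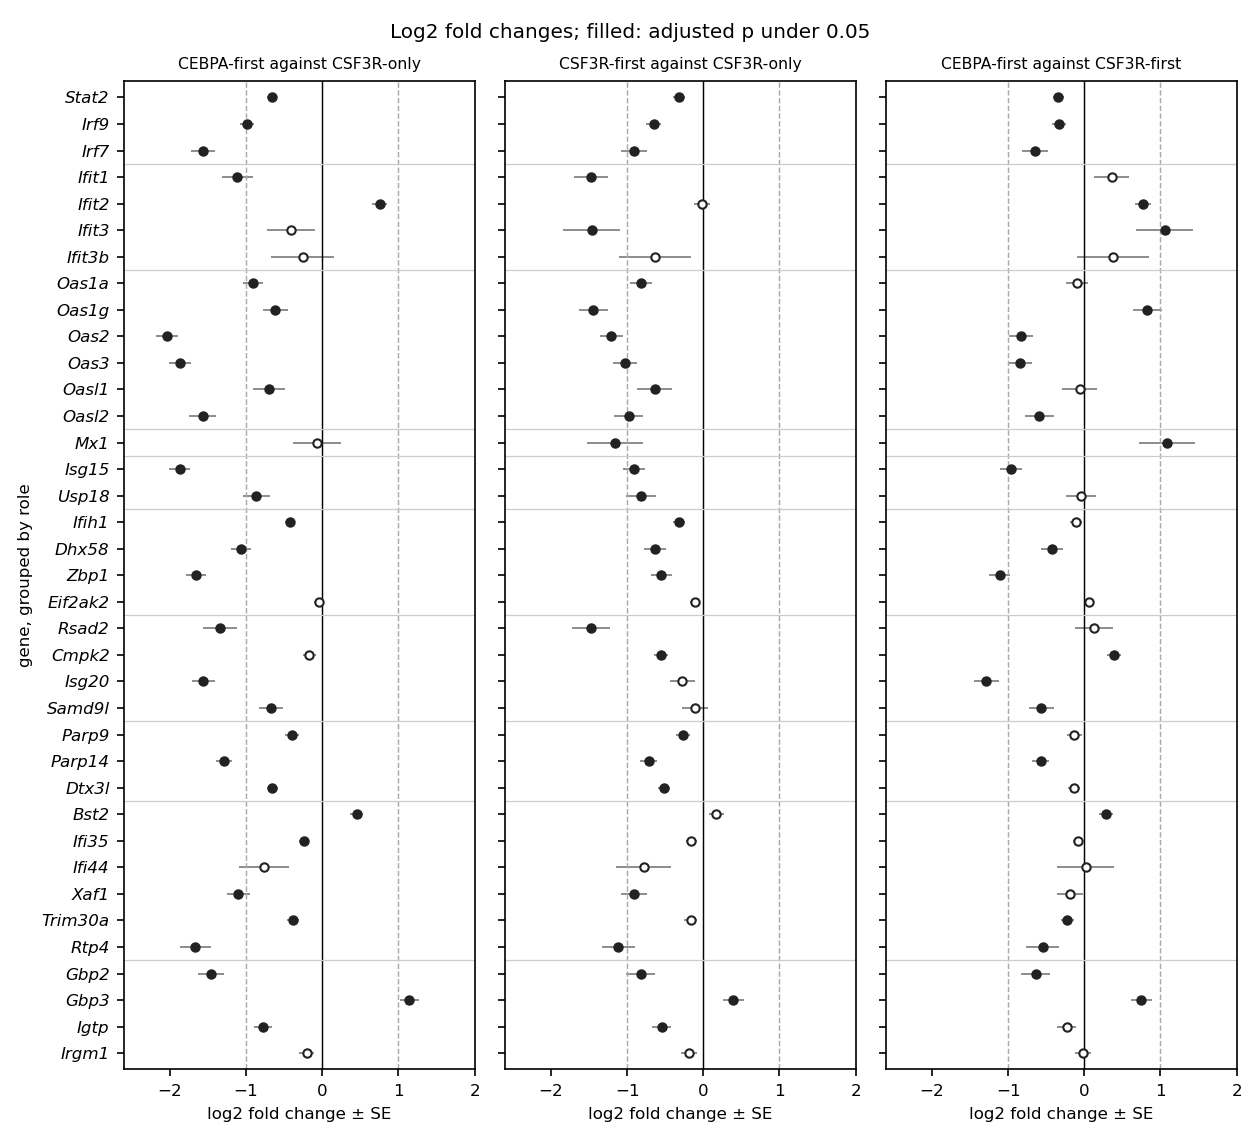
Points give each tested member's log2 fold change with its SE in the 3 comparisons, filled where the adjusted p was under 0.05; dashed lines mark a log2 fold change of 1. Filled points lie mainly left of 0 in the comparisons with CSF3R-only and on both sides in CEBPA-first against CSF3R-first.

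The regulators of the response fell in steps. Stat2 (ENSMUSG00000040033; GRCm38 chromosome 10, 128270559 to 128292849), the STAT that is specific to type I and type III signalling, was at 61.5, 64.6, 57.3 and 56.9 CPM in CSF3R-only replicates A to D, 50.3, 48.01 and 46.1 CPM in CSF3R-first replicates A to C and 39.7, 36.7, 40.99 and 34.6 CPM in CEBPA-first replicates A to D. No sample of one group overlapped another, with CSF3R-first in the middle. Its log2 fold change was -0.66 (SE 0.07, adjusted p = 1.8e-06) in CEBPA-first and -0.32 (SE 0.07, adjusted p = 0.0044) in CSF3R-first against CSF3R-only, and -0.34 (SE 0.07, adjusted p = 0.0024) between the orders. Irf9, the DNA-binding partner of STAT2, was at 61.9 ± 3.90 (CSF3R-only), 39.4 ± 5.36 (CSF3R-first) and 31.2 ± 2.49 CPM (CEBPA-first), and fell by log2 fold changes of -0.99 and -0.65. Its call between the orders, -0.34 (adjusted p = 0.010), was lost without CSF3R-first replicate A (-0.22). Irf7, which amplifies the production of type I interferon, fell most of the 3, at 29.01 ± 3.13 (CSF3R-only), 15.4 ± 3.23 (CSF3R-first) and 9.85 ± 2.24 CPM (CEBPA-first). Its log2 fold changes against CSF3R-only were -1.56 (adjusted p = 1.6e-06) in CEBPA-first and -0.91 (adjusted p = 0.0013) in CSF3R-first, and -0.65 (adjusted p = 0.0073) between the orders.

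The IFIT genes, whose products bind foreign RNA and hold back its translation, lie side by side on chromosome 19 and did not move together. Ifit1 (ENSMUSG00000034459; chromosome 19, 34640871 to 34650009) was at 5.18, 6.99, 4.54 and 5.04 CPM in CSF3R-only replicates A to D, 2.07, 2.25 and 1.56 CPM in CSF3R-first replicates A to C and 2.36, 1.79, 3.46 and 2.45 CPM in CEBPA-first replicates A to D. Every sample with both oncogenes lay below every CSF3R-only sample, while CSF3R-first and CEBPA-first overlapped. It fell, with a log2 fold change of -1.47 (SE 0.23, adjusted p = 0.00040) in CSF3R-first and -1.11 (SE 0.20, adjusted p = 0.00024) in CEBPA-first, and the orders gave a difference of 0.36 (adjusted p = 0.21). Ifit2 (ENSMUSG00000045932; chromosome 19, 34550694 to 34576419) went the other way. It was at 9.44, 9.37, 8.91 and 9.04 CPM in CSF3R-only replicates A to D, 8.10, 10.4 and 8.75 CPM in CSF3R-first replicates A to C and 16.6, 14.9, 16.6 and 13.8 CPM in CEBPA-first replicates A to D. All CEBPA-first samples were above all others, and CSF3R-first overlapped CSF3R-only. The log2 fold change was 0.75 (SE 0.09, adjusted p = 9.5e-06) against CSF3R-only and 0.77 (SE 0.10, adjusted p = 9.1e-05) against CSF3R-first, with -0.01 (adjusted p = 0.92) in CSF3R-first against CSF3R-only.

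Ifit3 (ENSMUSG00000074896; chromosome 19, 34583531 to 34588731), a partner of the IFIT1 protein, was low, at 1.94, 1.20, 0.806 and 1.17 CPM in CSF3R-only replicates A to D, 0.304, 0.724 and 0.363 CPM in CSF3R-first replicates A to C and 0.976, 0.597, 1.25 and 1.02 CPM in CEBPA-first replicates A to D. Its CSF3R-first samples lay below all CSF3R-only samples and overlapped CEBPA-first. The log2 fold changes were -1.47 (SE 0.38, adjusted p = 0.0077) in CSF3R-first against CSF3R-only, 1.05 (SE 0.38, adjusted p = 0.034) between the orders and -0.41 (adjusted p = 0.26) in CEBPA-first against CSF3R-only. Its reads cannot be told firmly from those of Ifit3b, since 97.4% of its transcript matches that gene at the near-identical level. Ifit3b, at 0.262 ± 0.105 (CSF3R-only), 0.168 ± 0.0832 (CSF3R-first) and 0.215 ± 0.0939 CPM (CEBPA-first), passed no test. With both genes summed, CSF3R-first stayed lower than CSF3R-only (log2 fold change -1.29, adjusted p = 0.014), and the difference between the orders was 0.90 (adjusted p = 0.061). The call of Ifit3 between the orders was also lost without any of CSF3R-first A or C or CEBPA-first A, C or D (log2 fold changes 0.84 to 1.05), and with a replicate block.

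Most OAS genes encode enzymes that make oligoadenylates in response to double-stranded RNA, which activates RNase L, and Oasl1 encodes a related protein without that activity. All 6 genes of the family fell in both groups against CSF3R-only, where 36.6% (CEBPA-first) and 21.1% (CSF3R-first) of all tested genes did. Oas2 (ENSMUSG00000032690; chromosome 5, 120730333 to 120749853) fell most of all members in CEBPA-first. It was at 42.2, 34.2, 33.5 and 32.1 CPM in CSF3R-only replicates A to D, 18.1, 13.9 and 14.2 CPM in CSF3R-first replicates A to C and 9.21, 7.28, 11.001 and 7.24 CPM in CEBPA-first replicates A to D. The 3 groups did not overlap and descended with CSF3R-first in the middle. The log2 fold change was -2.03 (SE 0.15, adjusted p = 8.3e-08) in CEBPA-first, -1.20 (SE 0.16, adjusted p = 0.00013) in CSF3R-first and -0.83 (SE 0.15, adjusted p = 0.00095) between the orders. Its neighbour Oas3 (ENSMUSG00000032661; chromosome 5, 120753098 to 120777661) was at 50.1, 48.5, 44.3 and 44.6 CPM in CSF3R-only replicates A to D, 26.7, 20.3 and 22.03 CPM in CSF3R-first replicates A to C and 14.7, 11.6, 15.97 and 9.30 CPM in CEBPA-first replicates A to D. It descended in the same way without overlap, with log2 fold changes of -1.87 (SE 0.15, adjusted p = 1.8e-07) in CEBPA-first, -1.03 (SE 0.16, adjusted p = 0.00037) in CSF3R-first and -0.84 (SE 0.15, adjusted p = 0.00089) between the orders.

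Oas1a and Oas1g, neighbours on chromosome 5, share 100% and 94.1% of their transcripts with near-identical copies, so the split of reads between them is uncertain. Oas1a was at 25.97 ± 3.48 (CSF3R-only), 14.8 ± 2.09 (CSF3R-first) and 13.8 ± 2.25 CPM (CEBPA-first), with log2 fold changes of -0.91 and -0.82 against CSF3R-only. Oas1g (ENSMUSG00000066861; chromosome 5, 120876142 to 120887613) was at 2.66, 2.90, 1.98 and 2.34 CPM in CSF3R-only replicates A to D, 0.954, 0.966 and 0.806 CPM in CSF3R-first replicates A to C and 1.97, 1.42, 1.65 and 1.42 CPM in CEBPA-first replicates A to D. As counted, CSF3R-first lay lowest without overlap, with a log2 fold change of -1.44 (SE 0.19, adjusted p = 0.00016) against CSF3R-only, and CEBPA-first lay 0.83 (SE 0.19, adjusted p = 0.0039) above it. CEBPA-first was itself below CSF3R-only (log2 fold change -0.62). Summed with Oas1a, the difference between the orders was -0.02 (adjusted p = 0.91), while both groups stayed below CSF3R-only, with log2 fold changes of -0.88 (adjusted p = 3.9e-05) in CEBPA-first and -0.86 (adjusted p = 0.0006) in CSF3R-first. The summed levels were 28.4, 15.7 and 15.4 CPM.

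The related Oasl2 was at 22.5 ± 4.74 (CSF3R-only), 11.4 ± 2.18 (CSF3R-first) and 7.59 ± 1.60 CPM (CEBPA-first), with log2 fold changes of -1.57 (adjusted p = 4.2e-06) in CEBPA-first and -0.98 (adjusted p = 0.0017) in CSF3R-first. Its call between the orders, -0.59 (adjusted p = 0.022), was lost without CEBPA-first B or D or CSF3R-first B (-0.44 to -0.51). Oasl1, which holds back the translation of Irf7 mRNA, was at 2.37 ± 0.447 (CSF3R-only), 1.53 ± 0.312 (CSF3R-first) and 1.46 ± 0.366 CPM (CEBPA-first), with -0.70 (adjusted p = 0.0086) in CEBPA-first. Its call in CSF3R-first, -0.64 (adjusted p = 0.038), was lost without CSF3R-first A or C or CSF3R-only B or C (-0.49 to -0.63) and without the filter on low counts.

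The MX genes encode dynamin-like GTPases that block viruses, and in C57BL/6 and most inbred strains the Mx1 gene carries a deletion. Mx1 (ENSMUSG00000000386; chromosome 16, 97447035 to 97462907) was low, at 1.19, 0.400, 0.907 and 1.12 CPM in CSF3R-only replicates A to D, 0.304, 0.604 and 0.316 CPM in CSF3R-first replicates A to C and 0.804, 0.716, 0.960 and 0.970 CPM in CEBPA-first replicates A to D, from 15 to 76 counts per sample. CSF3R-first lay below all CEBPA-first samples and overlapped CSF3R-only through CSF3R-only replicate B. The log2 fold change was -1.16 (SE 0.37, adjusted p = 0.023) in CSF3R-first against CSF3R-only and 1.09 (SE 0.36, adjusted p = 0.026) between the orders, and -0.07 (adjusted p = 0.85) in CEBPA-first against CSF3R-only. The first of these calls was lost without CSF3R-only A or D or CSF3R-first A or C (-0.97 to -1.03), and the second without CEBPA-first C or D or CSF3R-first A or C (0.92 to 1.04). Both were also lost with a replicate block, and the first in a fit of the compared groups alone (-1.14). Mx2 had 0 to 15 counts per sample and was not tested.

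The ISG15 pair fell in both groups. Isg15 (ENSMUSG00000035692; chromosome 4, 156199424 to 156200818), the ubiquitin-like protein that is attached to other proteins during an interferon response, was at 7.56, 8.71, 7.84 and 7.16 CPM in CSF3R-only replicates A to D, 4.97, 3.92 and 3.63 CPM in CSF3R-first replicates A to C and 2.02, 1.79, 2.52 and 2.22 CPM in CEBPA-first replicates A to D. The groups did not overlap, and CSF3R-first lay between. On the log2 scale the change was -1.87 (SE 0.14, adjusted p = 1e-07) in CEBPA-first, -0.91 (SE 0.14, adjusted p = 0.00050) in CSF3R-first and -0.96 (SE 0.15, adjusted p = 0.00024) between the orders. Usp18, which removes ISG15 and dampens the type I receptor, was at 4.28 ± 0.598 (CSF3R-only), 2.43 ± 0.522 (CSF3R-first) and 2.35 ± 0.469 CPM (CEBPA-first). It fell, with log2 fold changes of -0.87 (adjusted p = 0.00066) and -0.82 (adjusted p = 0.0052), and the orders gave -0.05 (adjusted p = 0.86).

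Of the sensors of foreign nucleic acid, 3 of 4 fell in both groups, against the same 36.6% and 21.1% of all tested genes. Zbp1 (ENSMUSG00000027514; chromosome 2, 173206612 to 173218923), which recognizes Z-form nucleic acid and can trigger necroptosis, was at 44.6, 54.05, 41.6 and 39.01 CPM in CSF3R-only replicates A to D, 34.6, 30.1 and 26.9 CPM in CSF3R-first replicates A to C and 15.1, 12.1, 17.1 and 12.4 CPM in CEBPA-first replicates A to D. No group overlapped another, and CEBPA-first stood furthest from the rest. On the log2 scale it changed by -1.66 (SE 0.13, adjusted p = 2e-07) in CEBPA-first, -0.55 (SE 0.14, adjusted p = 0.0071) in CSF3R-first and -1.11 (SE 0.14, adjusted p = 5.4e-05) between the orders. Dhx58, the regulator of RIG-I-like receptors also called LGP2, was at 18.9 ± 2.23 (CSF3R-only), 12.2 ± 1.28 (CSF3R-first) and 9.07 ± 1.79 CPM (CEBPA-first), with log2 fold changes of -1.06 (adjusted p = 1e-05) and -0.63 (adjusted p = 0.0040). Its call between the orders, -0.43 (adjusted p = 0.025), was lost without CEBPA-first B or D or CSF3R-first A (-0.34 to -0.35). Ifih1, the RNA sensor also called MDA5, fell less, at 25.96 ± 1.24 (CSF3R-only), 20.9 ± 1.997 (CSF3R-first) and 19.3 ± 0.657 CPM (CEBPA-first), with log2 fold changes of -0.42 (adjusted p = 0.00011) and -0.32 (adjusted p = 0.0054).

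Eif2ak2 (ENSMUSG00000024079; chromosome 17, 78852564 to 78882573), the kinase also called PKR that halts translation on double-stranded RNA, passed in no comparison. It was at 31.99, 33.1, 33.8 and 31.8 CPM in CSF3R-only replicates A to D, 31.8, 29.8 and 29.4 CPM in CSF3R-first replicates A to C and 30.8, 33.8, 32.7 and 29.4 CPM in CEBPA-first replicates A to D. Its log2 fold changes were -0.05 (adjusted p = 0.51) in CEBPA-first, -0.11 (adjusted p = 0.20) in CSF3R-first and 0.06 (adjusted p = 0.46) between the orders, with SEs of 0.06 to 0.07.

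The antiviral enzymes did not share 1 pattern. Rsad2 (ENSMUSG00000020641; chromosome 12, 26442746 to 26456452), which encodes viperin, was at 4.90, 4.81, 4.33 and 3.88 CPM in CSF3R-only replicates A to D, 1.34, 1.93 and 1.56 CPM in CSF3R-first replicates A to C and 1.45, 1.18, 2.73 and 1.72 CPM in CEBPA-first replicates A to D. Both groups lay below every CSF3R-only sample and overlapped each other. It fell, with log2 fold changes of -1.47 (SE 0.25, adjusted p = 0.00070) in CSF3R-first and -1.34 (SE 0.22, adjusted p = 0.00011) in CEBPA-first, with 0.13 (adjusted p = 0.70) between the orders. Cmpk2 (ENSMUSG00000020638; chromosome 12, 26469204 to 26479837), a nucleotide kinase gene beside Rsad2 on the opposite strand, was at 11.5, 10.1, 9.90 and 9.20 CPM in CSF3R-only replicates A to D, 7.29, 6.52 and 6.92 CPM in CSF3R-first replicates A to C and 9.11, 9.09, 9.27 and 8.75 CPM in CEBPA-first replicates A to D. CSF3R-first lay below every sample of both other groups, which overlapped. The log2 fold change was -0.56 (SE 0.09, adjusted p = 0.00067) in CSF3R-first against CSF3R-only and 0.39 (SE 0.09, adjusted p = 0.0044) between the orders. That in CEBPA-first against CSF3R-only was -0.17 (adjusted p = 0.087), and it passed without CSF3R-only replicate D (-0.22).

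Isg20 (ENSMUSG00000039236; chromosome 7, 78913424 to 78920396), an exonuclease of single-stranded RNA, was at 13.9, 17.2, 14.1 and 12.9 CPM in CSF3R-only replicates A to D, 14.2, 9.94 and 11.9 CPM in CSF3R-first replicates A to C and 5.19, 3.85, 6.30 and 4.42 CPM in CEBPA-first replicates A to D. CEBPA-first lay below all other samples, and CSF3R-first overlapped CSF3R-only. Its log2 fold change was -1.56 (SE 0.16, adjusted p = 1.5e-06) against CSF3R-only and -1.28 (SE 0.17, adjusted p = 6.9e-05) against CSF3R-first, the largest fall of a member between the orders, and -0.27 (adjusted p = 0.20) in CSF3R-first against CSF3R-only. Samd9l (ENSMUSG00000047735; chromosome 6, 3372257 to 3399572), a growth-restraining antiviral gene of myeloid cells, was at 211, 176, 174 and 199 CPM in CSF3R-only replicates A to D, 203, 146 and 179 CPM in CSF3R-first replicates A to C and 119, 125, 151 and 82.01 CPM in CEBPA-first replicates A to D. It followed the same order with more spread, and CEBPA-first overlapped CSF3R-first but not CSF3R-only. It fell, with a log2 fold change of -0.67 (SE 0.16, adjusted p = 0.0016) in CEBPA-first, with -0.11 (adjusted p = 0.63) in CSF3R-first. Its call between the orders, -0.56 (adjusted p = 0.014), was lost without CSF3R-first replicate A (-0.44).

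**Figure D3:**
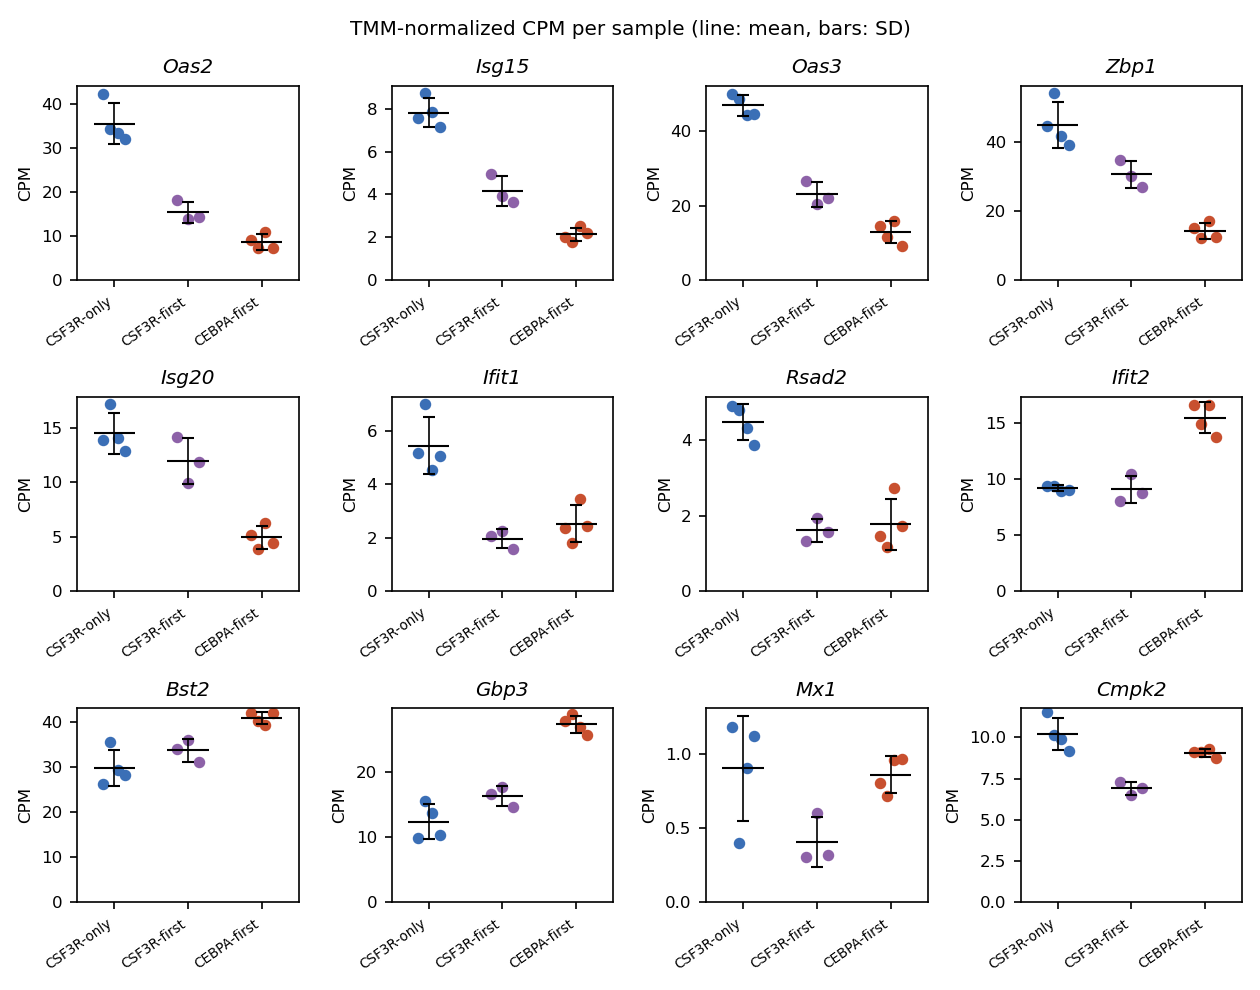
TMM-normalized CPM of 12 members in every sample, with the group mean (line) and SD (bars), each on its own axis from 0. Oas2, Isg15, Oas3 and Zbp1 step down through CSF3R-first, Ifit1 and Rsad2 fall alike in both groups with CEBPA V314VW, Ifit2 and Isg20 change in CEBPA-first, and Mx1 and Cmpk2 are lowest in CSF3R-first.

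Parp9 and Dtx3l encode partners in a ubiquitin ligase complex and Parp14 an ADP-ribosyltransferase, and the 3 genes are neighbours on chromosome 16. Dtx3l (ENSMUSG00000049502; chromosome 16, 35926511 to 35939151) was at 95.9, 91.4, 86.4 and 89.8 CPM in CSF3R-only replicates A to D, 68.1, 62.7 and 59.6 CPM in CSF3R-first replicates A to C and 58.7, 59.3, 62.8 and 50.2 CPM in CEBPA-first replicates A to D. Both groups lay below CSF3R-only and overlapped each other. It fell, with log2 fold changes of -0.65 (SE 0.07, adjusted p = 3.3e-06) in CEBPA-first and -0.52 (SE 0.08, adjusted p = 0.00037) in CSF3R-first, with -0.14 (adjusted p = 0.17) between the orders. Parp14 fell further, at 66.4 ± 6.86 (CSF3R-only), 40.4 ± 5.78 (CSF3R-first) and 27.2 ± 3.04 CPM (CEBPA-first), with log2 fold changes of -1.29 (adjusted p = 2.8e-07) and -0.72 (adjusted p = 0.00052), and the orders differed by -0.57 (adjusted p = 0.0015). Parp9, which overlaps Dtx3l in its exons, was at 61.5 ± 2.81 (CSF3R-only), 51.2 ± 5.86 (CSF3R-first) and 46.8 ± 5.18 CPM (CEBPA-first) and fell, with a log2 fold change of -0.40 (adjusted p = 0.0012) in CEBPA-first. Its call in CSF3R-first, -0.27 (adjusted p = 0.038), was lost without CEBPA-first A, CSF3R-first B or C or CSF3R-only A, B or C (-0.18 to -0.27), and without the filter on low counts.

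The membrane and other effectors moved in both directions. Bst2 (ENSMUSG00000046718; chromosome 8, 71534255 to 71537456), the tetherin that keeps virus particles on the cell surface, had 38.8 CPM per kilobase of exon on average over all samples, where Samd9l had 29.6 and Trim30a 19.1. In CSF3R-only alone Samd9l, at 35.01, was above Bst2, at 33.1 CPM per kilobase. Bst2 was at 26.3, 35.7, 29.4 and 28.3 CPM in CSF3R-only replicates A to D, 33.99, 36.1 and 31.1 CPM in CSF3R-first replicates A to C and 42.1, 40.4, 39.4 and 42.2 CPM in CEBPA-first replicates A to D. CEBPA-first lay above every other sample, and CSF3R-first overlapped CSF3R-only. It rose by 0.45 (SE 0.09, adjusted p = 0.00037) in CEBPA-first on the log2 scale. In CSF3R-first it was 0.17 (adjusted p = 0.16), and it passed without CSF3R-only replicate B (0.27). The call between the orders, 0.28 (adjusted p = 0.026), was lost without CEBPA-first A or D or CSF3R-first C (0.22 to 0.27).

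Trim30a (ENSMUSG00000030921; chromosome 7, 104409025 to 104465193), which restrains NF-kappaB signalling, was at 93.6, 89.4, 84.4 and 87.3 CPM in CSF3R-only replicates A to D, 90.1, 73.8 and 73.6 CPM in CSF3R-first replicates A to C and 71.9, 66.2, 72.3 and 60.8 CPM in CEBPA-first replicates A to D. CEBPA-first lay below all other samples, while CSF3R-first overlapped CSF3R-only through replicate A. It fell, with a log2 fold change of -0.39 (SE 0.08, adjusted p = 0.00060) in CEBPA-first. In CSF3R-first it was -0.16 (adjusted p = 0.14), and it passed without CSF3R-first replicate A (-0.27). The call between the orders, -0.22 (adjusted p = 0.043), was lost without CSF3R-first A, CEBPA-first B or D or CSF3R-only B, C or D (-0.12 to -0.23), in a fit of the compared groups alone (-0.26) and without the filter on low counts (-0.20). Rtp4, an antiviral protein of the chaperone type, was at 16.96 ± 3.88 (CSF3R-only), 7.83 ± 1.93 (CSF3R-first) and 5.35 ± 1.13 CPM (CEBPA-first), and fell, with log2 fold changes of -1.67 (adjusted p = 6.8e-06) and -1.12 (adjusted p = 0.0016). Its difference between the orders, -0.55, lay at the threshold and was lost under DESeq2's size factors, with a replicate block and without 7 of the 11 samples (-0.38 to -0.59). Its transcript has near-identical matches over 15.9%.

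Xaf1, which favours apoptosis, was at 6.32 ± 1.21 (CSF3R-only), 3.37 ± 0.261 (CSF3R-first) and 2.95 ± 0.521 CPM (CEBPA-first) and fell, with log2 fold changes of -1.10 (adjusted p = 2.9e-05) and -0.91 (adjusted p = 0.0013). Ifi35 was at 22.4 ± 0.585 (CSF3R-only), 20.1 ± 1.26 (CSF3R-first) and 18.98 ± 1.02 CPM (CEBPA-first), with a fall of -0.24 (adjusted p = 0.0049) in CEBPA-first that was lost without the filter on low counts. Its value in CSF3R-first was -0.16 (adjusted p = 0.088), which passed without CSF3R-first replicate A (-0.21). Ifi44, at 0.466 ± 0.163 (CSF3R-only), 0.275 ± 0.102 (CSF3R-first) and 0.275 ± 0.0498 CPM (CEBPA-first), passed in no comparison. Its log2 fold change in CEBPA-first, -0.76 (adjusted p = 0.052), passed without CSF3R-only C (-0.96) or CSF3R-first C (-0.75), and that in CSF3R-first, -0.78 (adjusted p = 0.10), without CSF3R-only C (-0.98).

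The interferon-inducible GTPases act against intracellular pathogens at the membranes of vacuoles. Gbp3 (ENSMUSG00000028268; chromosome 3, 142560026 to 142573209) was at 9.93, 15.5, 13.7 and 10.4 CPM in CSF3R-only replicates A to D, 16.7, 17.7 and 14.6 CPM in CSF3R-first replicates A to C and 27.9, 28.9, 26.98 and 25.8 CPM in CEBPA-first replicates A to D. CEBPA-first lay above all other samples. CSF3R-first overlapped CSF3R-only through CSF3R-only replicate B. The log2 fold change was 1.14 (SE 0.13, adjusted p = 3.7e-06) in CEBPA-first, the largest rise of a member, and 0.75 (SE 0.14, adjusted p = 0.00093) between the orders. The rise in CSF3R-first, 0.40 (SE 0.14, adjusted p = 0.034), was lost without CSF3R-first A or B or CSF3R-only A or D (0.30 to 0.38), and in a fit of the compared groups alone (0.41). Gbp2 (chromosome 3, 142620602 to 142638008), whose gene lies close by on the same strand, fell instead, at 31.7 ± 7.999 (CSF3R-only), 17.96 ± 3.04 (CSF3R-first) and 11.5 ± 1.73 CPM (CEBPA-first). Its log2 fold changes were -1.46 (adjusted p = 6.6e-06) in CEBPA-first, -0.82 (adjusted p = 0.0041) in CSF3R-first and -0.64 (adjusted p = 0.013) between the orders.

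Irgm1 (ENSMUSG00000046879; chromosome 11, 48861968 to 48871683), which regulates autophagy and other GTPases of its family, was at 34.3, 44.4, 38.5 and 35.3 CPM in CSF3R-only replicates A to D, 32.96, 38.4 and 28.99 CPM in CSF3R-first replicates A to C and 35.2, 32.1, 34.5 and 30.8 CPM in CEBPA-first replicates A to D. The groups overlapped. No comparison passed, with -0.20 (adjusted p = 0.080) in CEBPA-first and -0.19 (adjusted p = 0.17) in CSF3R-first, and the former passed without CSF3R-only replicate A (-0.25). Igtp, a close relative, was at 21.7 ± 3.24 (CSF3R-only), 14.9 ± 2.39 (CSF3R-first) and 12.6 ± 0.821 CPM (CEBPA-first) and fell, with log2 fold changes of -0.78 (adjusted p = 5.5e-05) and -0.55 (adjusted p = 0.0049). Between the orders it gave -0.23 (adjusted p = 0.15), which passed without CSF3R-first replicate C (-0.36).

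Where CSF3R-first lay was then read from the tests against both other groups. It differed from both and lay between them in 13 members (Stat2, Irf9, Irf7, Oas2, Oas3, Oasl2, Isg15, Dhx58, Zbp1, Parp14, Rtp4, Gbp2 and Gbp3), where 28.7% of all tested genes did. It lay below both in 4 members (Ifit3, Oas1g, Mx1 and Cmpk2), where 0.630% of all genes did, and above both in 0, where 0.605% did. Of these 4, Ifit3 and Oas1g rest on reads shared with near-identical genes, and with those pairs summed only Mx1 and Cmpk2 were counted below both. With a replicate block, Oas1g and Cmpk2 were. The count was 2 to 4 without single samples, and was 2 without CSF3R-first A or C or CEBPA-first C or D. Oas1g and Cmpk2 were counted in every such fit.

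In 10 members CSF3R-first differed from CSF3R-only alone (Ifit1, Oas1a, Oasl1, Usp18, Ifih1, Rsad2, Parp9, Dtx3l, Xaf1 and Igtp), where 12.7% of all tested genes did. In 5 it differed from CEBPA-first alone (Ifit2, Isg20, Samd9l, Bst2 and Trim30a), where 18.3% of all genes did, and in 5 from neither (Ifit3b, Eif2ak2, Ifi35, Ifi44 and Irgm1), where 39.0% did. On a scale from 0 at the CSF3R-only mean to 1 at the CEBPA-first mean of log2 CPM, the median position of CSF3R-first was 0.61 over the 30 members that differed between these groups. The position was between 0 and 1 in 26 of them, and of these 26, 18 lay from 0.5 to 1 and 8 from 0 to under 0.5. It was below 0 in 1 member and above 1 in 3. Over all 11314 tested genes that differed between these groups, the median position was 0.47, with 91.8% between 0 and 1. Of all these genes, 39.4% lay from 0.5 to 1 and 52.3% from 0 to under 0.5. No test was made of the difference between the members and these genes. The members nearest CSF3R-only were Ifit2 (-0.03), Samd9l (0.17) and Isg20 (0.18). Those at or past CEBPA-first were Rsad2 (1.06), Ifit1 (1.29) and Oas1g (2.32), the last with the limit on shared reads given above.

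**Figure D4:**
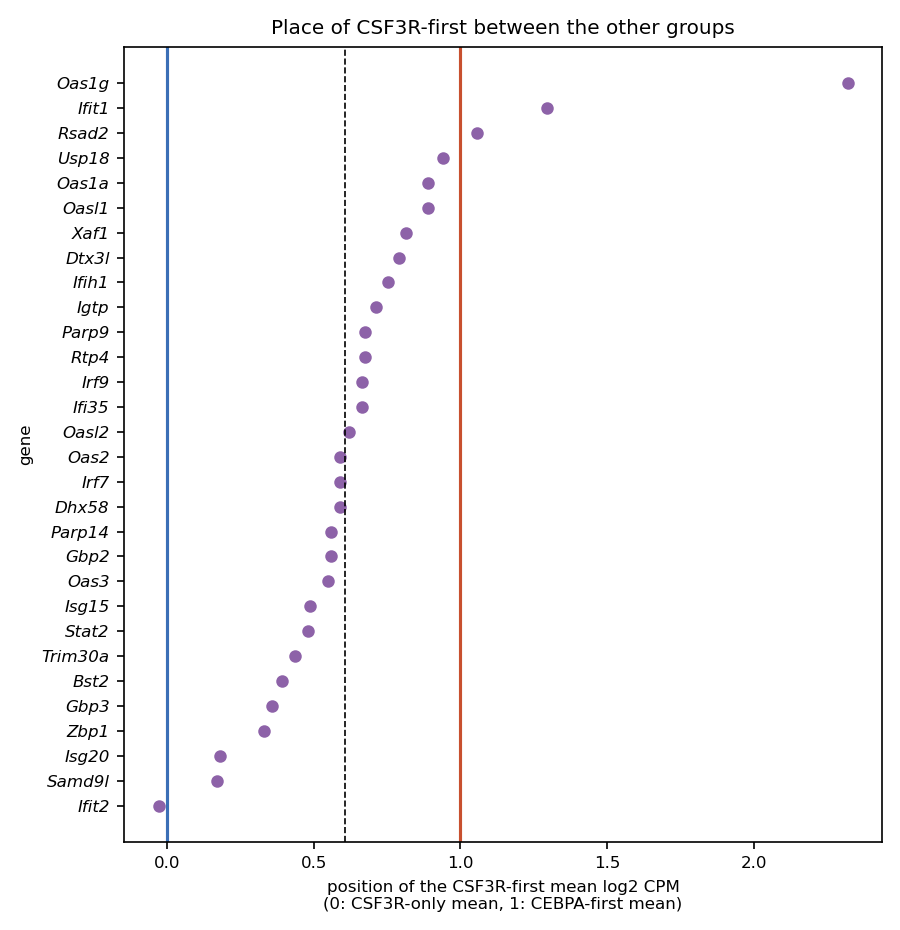
Each point is 1 of the 30 members that differed between CSF3R-only (0, blue line) and CEBPA-first (1, red line), placed by the CSF3R-first mean log2 CPM, with the median as a dashed line. Points spread from near 0 (Ifit2) to beyond 1 (Rsad2, Ifit1 and Oas1g), with the median at 0.61.

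The rest of the pathway was followed in lists of other genes. Of all tested genes, 36.6% were lower and 35.4% higher in CEBPA-first, and 21.1% and 21.6% in CSF3R-first, against CSF3R-only. Of 10 interferon ligand genes, 0 passed the filter on low counts, and 7 (Ifna1, Ifna2, Ifna4, Ifna5, Ifne, Ifnl2 and Ifnl3) had no count in any sample. Of 6 receptor chains, 5 were lower in CEBPA-first and the same number in CSF3R-first, and Ifnar2 passed in neither. Ifnlr1, the specific chain of the type III interferon receptor, moved most, at 22.5 ± 4.54 (CSF3R-only), 6.72 ± 2.90 (CSF3R-first) and 0.528 ± 0.0889 CPM (CEBPA-first), with log2 fold changes of -5.39 (SE 0.28, adjusted p = 4.5e-09) in CEBPA-first and -1.75 (SE 0.24, adjusted p = 0.00018) in CSF3R-first. Of 10 receptor kinases and transcription factors, 7 were lower in CEBPA-first and 6 in CSF3R-first, with 0 higher. Irf1, a transcription factor induced by interferon gamma, was at 136 ± 7.28 (CSF3R-only), 108 ± 16.2 (CSF3R-first) and 83.9 ± 6.99 CPM (CEBPA-first), with -0.69 (SE 0.09, adjusted p = 1.2e-05) and -0.33 (SE 0.10, adjusted p = 0.016). Irf5, a factor downstream of Toll-like receptors, moved most of this list, by -1.41 (SE 0.13, adjusted p = 9e-07) in CEBPA-first.

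In the lists further from the receptor, the counts are again read against 36.6% lower and 35.4% higher of all genes in CEBPA-first and 21.1% and 21.6% in CSF3R-first. The shares of 4 of 10 lower in antigen processing and of 4 of 9 higher both in the negative regulators and in the other GTPases are near those of all genes. Of 9 negative regulators, 5 were lower and 4 higher in CEBPA-first, and 3 and 2 in CSF3R-first. Socs3, an inhibitor of JAK signalling, moved most, by -1.41 (SE 0.11, adjusted p = 1.7e-07) in CEBPA-first. Of 12 genes of upstream sensing, 8 were lower and 2 higher in CEBPA-first, and 5 and 2 in CSF3R-first. Ikbke, a kinase that activates IRF3 and IRF7, fell most, by -2.42 (SE 0.14, adjusted p = 1.3e-08) in CEBPA-first. Of 10 genes of antigen processing, 4 were lower and 6 passed in neither direction in CEBPA-first, and 3 were lower and 0 higher in CSF3R-first. B2m, the light chain of MHC class I, moved most, by -0.97 (SE 0.10, adjusted p = 2.4e-06) in CEBPA-first. Of 9 tested other interferon-inducible GTPases, 4 were higher (Gbp5, Gbp7, Ifi47 and Gvin1) and 3 lower (Gbp9, Irgm2 and Iigp1) in CEBPA-first, and 0 and 3 (Gbp4, Gbp9 and Irgm2) in CSF3R-first. Iigp1 had the largest log2 fold change of this list, -2.69 (SE 0.84, adjusted p = 0.011), at 0.911 ± 1.17 (CSF3R-only), 0.197 ± 0.161 (CSF3R-first) and 0.139 ± 0.0557 CPM (CEBPA-first), with an SD above the mean in CSF3R-only.

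**Figure D5:**
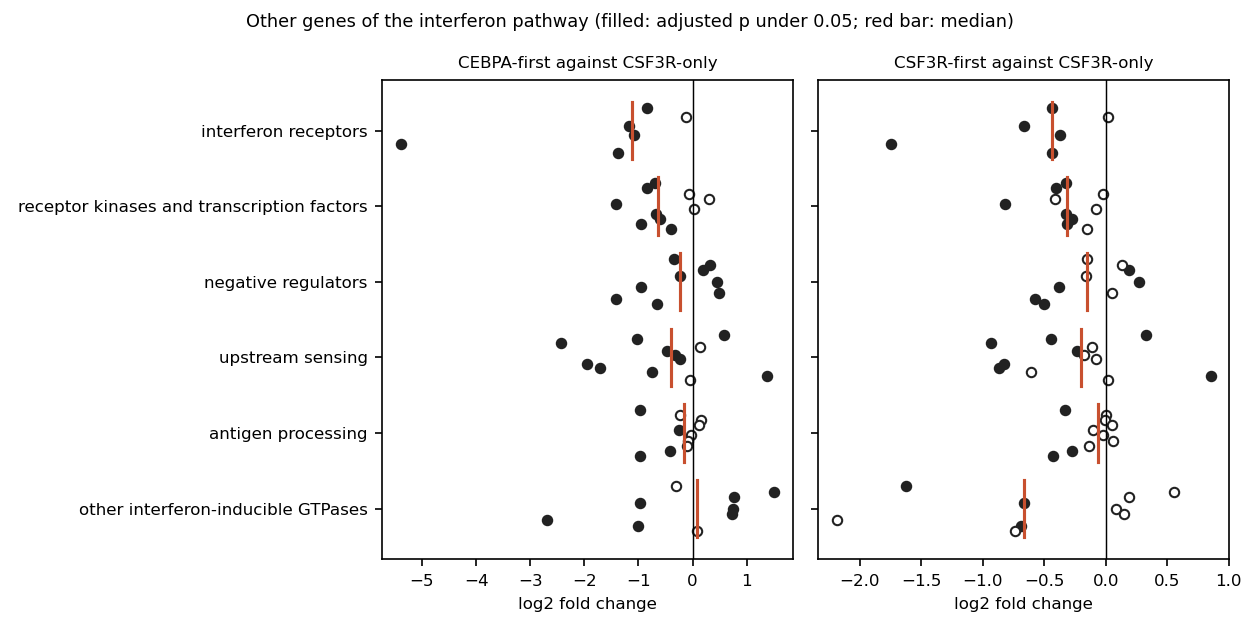
Points give the log2 fold change of each tested gene of 6 pathway lists against CSF3R-only, filled where the adjusted p was under 0.05, with the list median as a red bar; the panels have different axes. Most receptors, kinases and transcription factors lie left of 0, and the other GTPases lie on both sides, with Ifnlr1 at -5.39 in CEBPA-first and -1.75 in CSF3R-first.

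Markers of several cell types moved with the groups, and their counts are read against 36.6% lower and 35.4% higher of all tested genes in CEBPA-first and 21.1% and 21.6% in CSF3R-first. All 8 neutrophil markers were lower in CEBPA-first and 7 in CSF3R-first, and their summed level was 22354 to 27268 CPM for CSF3R-only, 13328 to 22995 for CSF3R-first and 6095 to 8139 for CEBPA-first. Of 7 monocyte and macrophage markers, 5 were lower and 2 higher in CEBPA-first, and 4 and 0 in CSF3R-first, with sums of 4267 to 4652, 3277 to 5377 and 3559 to 5219 CPM. F13a1, which rose in CEBPA-first, carried most of these sums, at 2577 ± 125 (CSF3R-only), 3125 ± 708 (CSF3R-first) and 4007 ± 693 CPM (CEBPA-first), while Csf1r, the receptor for macrophage colony-stimulating factor, fell in both groups, at 1126 ± 161 (CSF3R-only), 589.6 ± 224 (CSF3R-first) and 223 ± 37.2 CPM (CEBPA-first), as did Adgre1, Cx3cr1 and Ms4a7, while Mrc1 fell in CEBPA-first and did not pass in CSF3R-first, with a log2 fold change of -0.86 (adjusted p = 0.065) in the latter. Of 5 tested plasmacytoid dendritic cell markers, 2 were higher and 3 lower in CEBPA-first, and 1 was higher and 0 lower in CSF3R-first. The markers of this type summed to 35.3 to 37.1, 48.7 to 53.4 and 73.4 to 77.1 CPM, nearly all of it Tcf4. The defining marker Siglech was at 0.0269 ± 0.0315 (CSF3R-only), 0.0188 ± 0.0205 (CSF3R-first) and 0.00908 ± 0.0105 CPM (CEBPA-first). Of 4 tested conventional dendritic cell markers, 1 was higher (Flt3) and 2 lower (Itgax and Zbtb46) in CEBPA-first, and 1 was higher (Flt3) and 0 lower in CSF3R-first, with sums of 13.7 to 16.7, 13.1 to 13.8 and 8.43 to 9.96 CPM. B cell markers summed to at most 0.821 CPM, and the 1 tested, Cd79a, was lower in both groups. T and NK cell markers summed to at most 0.864 CPM with Cd3e and Ncr1 at 0, and the 1 tested, Klrb1c, was higher in CEBPA-first, with a log2 fold change of 3.09 (SE 0.59, adjusted p = 0.00039). Of 5 megakaryocyte markers all 5 were lower in both groups, and their sums were 811 to 1104, 320 to 489 and 109.6 to 152 CPM. Of 5 erythroid markers 4 were lower in CEBPA-first and 0 in CSF3R-first, with sums of 144 to 205, 63.3 to 195 and 19.9 to 30.3 CPM. Of 7 stem and progenitor markers, 3 were lower (Cd34, Ly6a and Meis1) and 3 higher (Kit, Flt3 and Hlf) in CEBPA-first, shares near those of all genes, and 4 lower and 1 higher in CSF3R-first, with sums of 606 to 901, 411 to 482 and 280.4 to 353 CPM. Of 4 mast cell and basophil markers, 2 were lower (Cpa3 and Mcpt8) and 1 higher (Fcer1a) in CEBPA-first, and 3 lower in CSF3R-first, with sums of 1143 to 1827, 669 to 878 and 732 to 1031 CPM. The summed level of the 38 members was 1083 to 1205 CPM for CSF3R-only, 804 to 956 for CSF3R-first and 619 to 793 for CEBPA-first. The part of cell composition in these differences was not tested, and in these bulk samples fewer cells of a type and less RNA per cell cannot be told apart.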

How the data were processed

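Lineage-negative GFP/RFP-positive marrow cells of 3 groups were sequenced from total RNA (SMARTer low-input libraries). Per the study's methods, Trimmomatic trimmed the reads and STAR mapped them. The authors deposited raw counts for each Ensembl gene, not normalized; the submitters' processing notes name mm10. The counting tool, annotation and use of strand are not given in the sources used here, so overlapping genes may share reads. The authors used DESeq2.

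TMM factors scaled the counts, filterByExpr left 15703 genes, and the quasi-likelihood test of edgeR 4.0.16 (R 4.3.3) was run in 1 fit of the 3 groups without covariates, with Benjamini-Hochberg adjustment over all tested genes. Each SE is the log2 fold change over the square root of F. Log2 CPM used a prior count of 2. The pipeline was tested on simulated counts. BLAST 2.17.0 found near-identical sequence of other genes (minimum 100 bp and 97% identity); positions and exons come from a GENCODE annotation of GRCm38, the assembly of mm10. Figures used matplotlib 3.10.9. Alternatives were DESeq2 1.42.0, its size factors in edgeR, no filter, at least 10 counts in every sample, the compared groups alone, a replicate block and each sample left out. Summing near-identical pairs was added after seeing the data.

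Members, role groups and lists were chosen with earlier results of these data known. Every member is named. Values in every sample are given for the member with the highest mean CPM of each role, the 3 largest rises and falls in each comparison and members with CSF3R-first outside both groups. Of each pathway list, the gene with the largest change is named, with Irf1; 1 other gene of the rule is not reported here. Members and other genes named beyond this rule, including the members that rose among the other GTPases, were chosen after their values were seen. Chi-square per degree of freedom between replicates was 6.63 to 69.4, above sampling noise, and each was kept as 1 sample.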

Additional observations from a re-analysis of the deposited data

How the results depend on the processing

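The median log2 fold changes of the members and the median position of CSF3R-first moved by less than the spread between samples under each alternative run. Leaving a sample out moves a group mean by only part of that sample's distance from it, so fits without single samples could hardly exceed this spread. The median between the orders, -0.13, ran from -0.20 to -0.08 without single samples. The count of members called with the fold in CEBPA-first against CSF3R-first fell from 4 to 2 with a replicate block, and without single samples it ran from 2 (without CEBPA-first replicate D or CSF3R-first replicate A) to 5. In CSF3R-first against CSF3R-only, the count of 8 ran from 5 (without CSF3R-first replicate C) to 9. Members with CSF3R-first outside both groups numbered 4, but 2 with a replicate block and 2 with near-identical pairs summed, an alternative added after seeing the data, and 2 to 4 without single samples. The cause was not tested. In the Oas1 pair the sum is mostly Oas1a, at 14.8 CPM in CSF3R-first where Oas1g was at 0.909, so it follows Oas1a. The summed Ifit3 pair had a log2 fold change of 0.90 between the orders, where Ifit3 alone had 1.05. In CEBPA-first against CSF3R-only, 12 to 17 members were called without single samples, where 15 were with all. The members with CSF3R-first between the groups ran from 9 to 14, where 13 were with all samples.

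The labels do not say whether a letter marks a shared infection or day. Deviations of samples with the same letter correlated from -0.11 to 0.36, over 0.1 in 7 of 10 pairs, and those with other letters from -0.34 to 0.38, over 0.1 in 5 of 30 pairs. Pairs with the same letter thus passed 0.1 more often than other pairs, though not all of them did. The main fit left the letters out, and the replicate block, with the changes given for it, was the alternative that used them. Whether some samples share an infection or day was not tested. For the members given sample by sample, differences that passed with all samples were checked again under the alternatives. Each check was a gene in a comparison under a setting, and the checks share samples. The difference passed again in 697 checks and lost the threshold in 34, all with the same direction. DESeq2 changed the call of no tested member in the 3 comparisons. Against CSF3R-only, Cmpk2, Ifi44 and Irgm1 in CEBPA-first passed with at least 10 counts in every sample, Ifi44 and Irgm1 also in fits of the compared groups alone, and Ifi44 in CEBPA-first and Trim30a in CSF3R-first with a replicate block, beside the fits without single samples named with each gene. Depth limits the low members most: Mx1, Ifit3, Ifit3b and Ifi44 were under 2 CPM in every sample, and Mx2 could not be tested.

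By Dixon's test, 0 of 42 groups of 4 samples (named members and the member median in CSF3R-only and CEBPA-first) held an outlying sample; chance alone gives about 2.1.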
